A study of Mus musculus with 10 samples.

Results

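The glucocorticoid receptor and its feedback targets were described in whole liver of germ-free (GF) mice through 7 genes, found among the 12147 genes tested by matching Ensembl identifiers to symbols. They were the receptor gene Nr3c1, the hormone-activating enzyme gene Hsd11b1, and the target genes Fkbp5, Tsc22d3, Zbtb16, Sgk1 and Ddit4. All were wild-type C57BL/6 mice kept germ-free. The GF+MEV group received 80 µg of microbiota-derived extracellular vesicles (MEV), membrane particles shed by gut bacteria, in PBS by mouth 2 times a week for 3 weeks. The GF+PBS group received PBS alone. Each group had 5 livers with 1 RNA-seq library each, all from a single experiment. The age and sex of these mice, the hour of tissue collection, their feeding state and their circulating corticosterone were not given in the sources used here.

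Glucocorticoids, corticosterone in mice, enter the cell and bind the receptor, which is held ready in the cytoplasm by HSP90 and its cochaperones. The bound receptor moves to the nucleus and binds DNA elements made of a pair of inverted hexamers. In the liver it is known for driving gluconeogenic and amino acid-degrading enzymes, and several of its target genes encode products that dampen the response. The 7 genes were chosen with the difference between GF+MEV and GF+PBS livers known, so their levels, fold changes and co-variation are given as a description and no test is read from them.

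The libraries held between 15746119 and 20523649 counts on genes. Levels are CPM, a library's counts on a gene set against its total, scaled by the trimmed mean of M values (TMM), a factor that sets the bulk of genes level between libraries. The library of GF+MEV replicate 2 stood apart, with a TMM factor of 0.890 where the other 9 lay between 0.978 and 1.04. Its chi-square per gene against the other GF+MEV livers was 133 to 175, and that of the other 6 GF+MEV pairs was 8.15 to 21.3. The chi-square scaled counts by library totals without TMM, so it is not independent of the TMM factor. Among GF+PBS livers, replicates 1 and 3 were the closest pair with a chi-square per gene of 6.34, and replicates 4 and 5 followed with 7.18. Values that rest on these libraries are given with and without them. Sums over hepatocyte markers were 100571 to 119715 CPM in GF+MEV and 103402 to 119896 CPM in GF+PBS livers. The summed markers of the labelled tissue thus overlapped between groups, and calls of single markers are given further below.

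The stretch upstream of a start site is a place where a hexamer pair can be read directly. In RefSeq promoter windows of 250 bases on GRCm38.p6, the full palindrome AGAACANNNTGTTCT, which reads the same on both strands, occurred in 3 of 32851 windows (0.00913%). The table held 12 windows for the searched members, with 1 each for Hsd11b1, Fkbp5 and Ddit4, 3 for Tsc22d3 and 6 for Sgk1. No window was given for Zbtb16 and Nr3c1 was not searched. Only the Sgk1 window at chr10:21993640-21993889 on the plus strand, upstream of 1 of its annotated starts, held the full palindrome, from 189 to 175 bases before that start. It is printed 5′ to 3′ with the match in capitals, beside the Fkbp5 window at chr17:28486150-28486399 on the minus strand, which held neither the palindrome nor a single hexamer and so has no capitals.
Sgk1: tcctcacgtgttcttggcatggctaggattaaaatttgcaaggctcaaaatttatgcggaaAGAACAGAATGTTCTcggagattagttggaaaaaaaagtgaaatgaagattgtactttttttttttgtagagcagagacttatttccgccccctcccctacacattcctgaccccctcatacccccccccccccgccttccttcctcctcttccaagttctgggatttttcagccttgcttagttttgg
Fkbp5: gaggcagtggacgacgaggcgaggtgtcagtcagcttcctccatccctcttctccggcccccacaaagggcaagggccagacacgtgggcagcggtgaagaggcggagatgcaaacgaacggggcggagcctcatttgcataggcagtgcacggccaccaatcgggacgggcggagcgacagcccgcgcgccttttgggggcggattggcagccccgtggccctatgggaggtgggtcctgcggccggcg

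A single hexamer, AGAACA on either strand, counted also where it is part of a palindrome, was in 4 of the 12 member windows and in 16.1% of all windows. The shorter core GNACANNNTGTNC, which includes every full palindrome, was in 0.387% of all windows. These are matches of letters within the windows searched, and receptor binding was not measured. Sequence outside the windows was not searched, so a window without a match does not mean a gene without an element.

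Of the 7 genes, 5 were higher in GF+MEV livers past an adjusted p of 0.05 in edgeR's quasi-likelihood test, against 4.12% of all genes tested, and 1 was lower, against 3.52%. The same 5 had every GF+MEV liver above every GF+PBS liver (3.94% of all genes), and the same 1 had every GF+MEV liver below (3.45%). The median log2 fold change of the 7 genes was 1.32, and that of all genes tested was -0.0037. Because the genes were picked on this contrast, these counts are set beside the background and nothing is read from them.

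**Figure D1:**
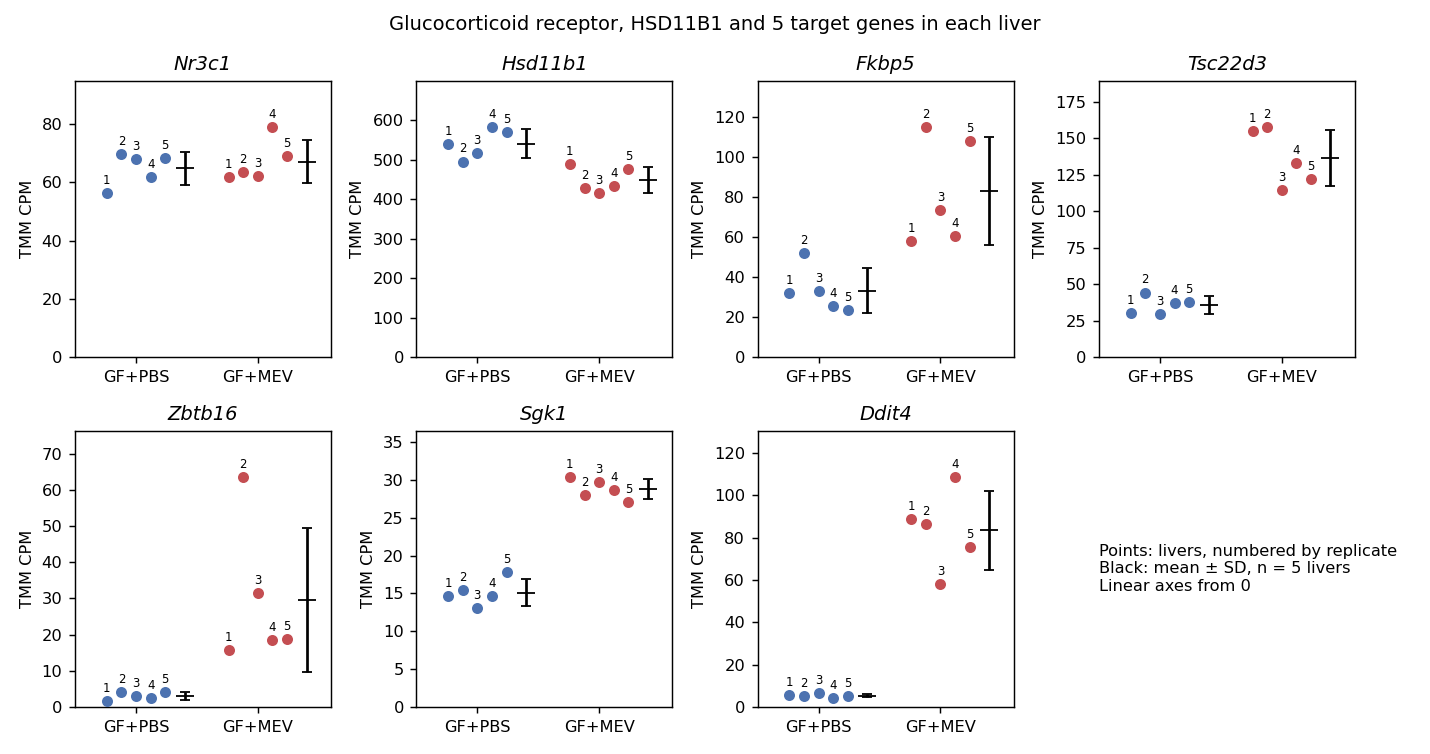
TMM CPM (linear vertical axes from 0) of the 7 genes in each GF+PBS (blue) and GF+MEV (red) liver, points numbered by replicate, with black bars for the mean ± SD of 5 livers. Nr3c1 overlaps between groups, Hsd11b1 sits lower in GF+MEV livers, and the 5 targets sit higher, with Ddit4 at 57.9 to 109 CPM against 4.19 to 6.43 CPM.

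Nr3c1 (ENSMUSG00000024431), which encodes the glucocorticoid receptor, stood at 61.8, 63.5, 62.1, 79.0 and 69.2 CPM in GF+MEV replicates 1 to 5 and at 56.3, 69.8, 67.9, 61.7 and 68.4 CPM in GF+PBS replicates 1 to 5. The groups overlapped throughout. The means were 67.1 ± 7.28 and 64.8 ± 5.68 CPM (SD, n = 5), a log2 fold change of 0.05 ± 0.09 (SE), and the sign turned to -0.01 without GF+MEV replicate 4 and to -0.02 with library size alone. The change in Nr3c1 was larger in absolute size than that of 25.4% of all genes.

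Hsd11b1 (ENSMUSG00000016194), at chr1:193221634-193264075 on the minus strand (GRCm38, as for the positions that follow), encodes the enzyme that regenerates active corticosterone from its inert 11-keto form inside the hepatocyte. It stood at 489.6, 427.8, 415.6, 434.0 and 475.0 CPM in GF+MEV and at 539.7, 495.0, 516.4, 582.1 and 569.4 CPM in GF+PBS livers. The highest GF+MEV liver, replicate 1, lay just under the lowest GF+PBS liver, replicate 2. The means of 448 ± 32.1 and 541 ± 36.1 CPM gave a log2 fold change of -0.27 ± 0.06. The gene passed the threshold in 15 of 18 alternative analyses, but not without GF+MEV replicate 3, without GF+PBS replicate 4, or with GF+PBS replicates 1 and 3, and 4 and 5, summed. In whole tissue, fewer cells of a type and less RNA per cell cannot be told apart.

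Fkbp5 (ENSMUSG00000024222, chr17:28399094-28517527, minus strand) encodes FKBP51, an HSP90 cochaperone that lowers the receptor's affinity for hormone. Its levels were 58.0, 115, 73.7, 60.4 and 108 CPM in GF+MEV and 31.9, 52.2, 33.2, 25.7 and 23.4 CPM in GF+PBS livers. GF+MEV replicates 2 and 5 were the high ones in their group, and the lowest GF+MEV liver was 11.1% above GF+PBS replicate 2. The means were 83.1 ± 26.9 and 33.3 ± 11.3 CPM, a 2.50-fold difference and a log2 fold change of 1.32 ± 0.29, which was 1.54 without GF+PBS replicate 2 and 1.18 without GF+MEV replicate 2.

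Tsc22d3 (ENSMUSG00000031431, chrX:140539528-140600659, minus strand) encodes GILZ, a leucine zipper protein that restrains NF-κB and AP-1. It stood at 155, 158, 114, 133 and 122 CPM in GF+MEV and at 30.0, 44.3, 29.4, 36.9 and 38 CPM in GF+PBS livers. The lowest GF+MEV liver was 158% above the highest GF+PBS liver. The means of 136 ± 19.2 and 35.7 ± 6.18 CPM differed 3.82-fold, a log2 fold change of 1.93 ± 0.14.

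Zbtb16 (ENSMUSG00000066687, chr9:48654297-48836222, minus strand) encodes PLZF, a zinc finger transcription factor that glucocorticoids induce in many tissues. It stood at 15.8, 63.6, 31.4, 18.6 and 18.7 CPM in GF+MEV and at 1.55, 4.03, 2.98, 2.48 and 4.02 CPM in GF+PBS livers, where it rested on 28 to 72 counts a library. GF+MEV replicate 2 held 4.03 times the level of the lowest liver of its group, replicate 1. The means were 29.6 ± 19.9 and 3.01 ± 1.06 CPM and the log2 fold change was 3.3 ± 0.44, or 2.82 without GF+MEV replicate 2.

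Sgk1 (ENSMUSG00000019970, chr10:21882184-21999903, plus strand), whose upstream window is printed above, encodes a kinase known for control of ion transport. It stood at 30.4, 28.0, 29.8, 28.7 and 27.0 CPM in GF+MEV and at 14.6, 15.5, 13, 14.7 and 17.8 CPM in GF+PBS livers. These 5 GF+MEV livers were the most alike of any member in either group, with a coefficient of variation of 4.71% where counting error alone gives 4.51% at that depth. The means of 28.8 ± 1.36 and 15.1 ± 1.76 CPM differed 1.90-fold, a log2 fold change of 0.93 ± 0.08.

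Ddit4 (ENSMUSG00000020108, chr10:59949669-59951834, minus strand) encodes REDD1, an inhibitor of the growth kinase complex mTORC1. It stood at 88.6, 86.3, 57.9, 109 and 75.6 CPM in GF+MEV and at 5.61, 5.16, 6.43, 4.19 and 5.10 CPM in GF+PBS livers, with 83 to 108 counts a library in the latter. No other tested gene had a higher log2 fold change in this contrast. The means of 83.4 ± 18.6 and 5.30 ± 0.81 CPM differed 15.7-fold, a log2 fold change of 3.98 ± 0.18, and stayed between 3.86 and 4.09 over the 18 alternatives. Fkbp5, Tsc22d3, Zbtb16, Sgk1 and Ddit4 passed the threshold in all 18.

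Levels were divided by the union of each gene's annotated exons in kilobases, as a rough scale between genes. The isoforms in use were not measured, so close ranks are not read as an order. On this scale Hsd11b1 led both groups, with 105 CPM per kb in GF+MEV and 127 CPM per kb in GF+PBS livers. In GF+PBS livers Nr3c1 (8.43) and Tsc22d3 (8.23) followed with overlapping livers, then Fkbp5 (3.52), Sgk1 (3.09) and Ddit4 (3.02), where neighbours also overlapped, and Zbtb16 came last at 0.570 CPM per kb. In GF+MEV livers Ddit4 (47.5) and Tsc22d3 (31.4) came after Hsd11b1 and overlapped each other. Fkbp5 (8.78) and Nr3c1 (8.73) overlapped, as did Sgk1 (5.87) and Zbtb16 (5.61).

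The receptor waits for hormone in a complex with chaperones. Of 16 genes for HSP90, HSP70 and their cochaperones, 15 were tested and 0 passed the threshold by edgeR or by DESeq2, with 2 at an unadjusted p under 0.05 (Hspa8 and Fkbp4). Their log2 fold changes ran from -0.20 to 0.20 with a median of -0.021. Hsp90ab1, the constitutive HSP90, was at 794 ± 40.9 against 739 ± 42.4 CPM, and Hspa8, the constitutive HSP70, at 768 ± 59.1 against 668 ± 73.5 CPM. Fkbp4, whose product FKBP52 competes with FKBP51 for HSP90, had a log2 fold change of -0.20 ± 0.06, opposite in sign to Fkbp5. It did not pass with TMM and was called lower with upper-quartile scaling or library size alone.

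Among 17 coactivators and corepressors 1 rose, Crebbp, an acetyltransferase coactivator, by 0.41 ± 0.11 (edgeR adjusted p = 0.0211), a count near the 4.12% of all genes called higher, and the list's median was 0.16. The Crebbp call was lost without GF+PBS replicate 3 (adjusted p = 0.0524) and with library size alone (0.0614), over a range of 0.00271 to 0.0614, and with library size alone the list's single call was Hexim1, lower. Ncor1, a corepressor, stood at 0.13 ± 0.13 and did not pass. Of the other steroid and related receptors, 5 of 8 were tested and 0 passed by edgeR or DESeq2, with 1 at an unadjusted p under 0.05. That gene was Nr3c2, the mineralocorticoid receptor, which also binds corticosterone, at 21.9 ± 1.19 against 18.7 ± 1.78 CPM.

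**Figure D2:**
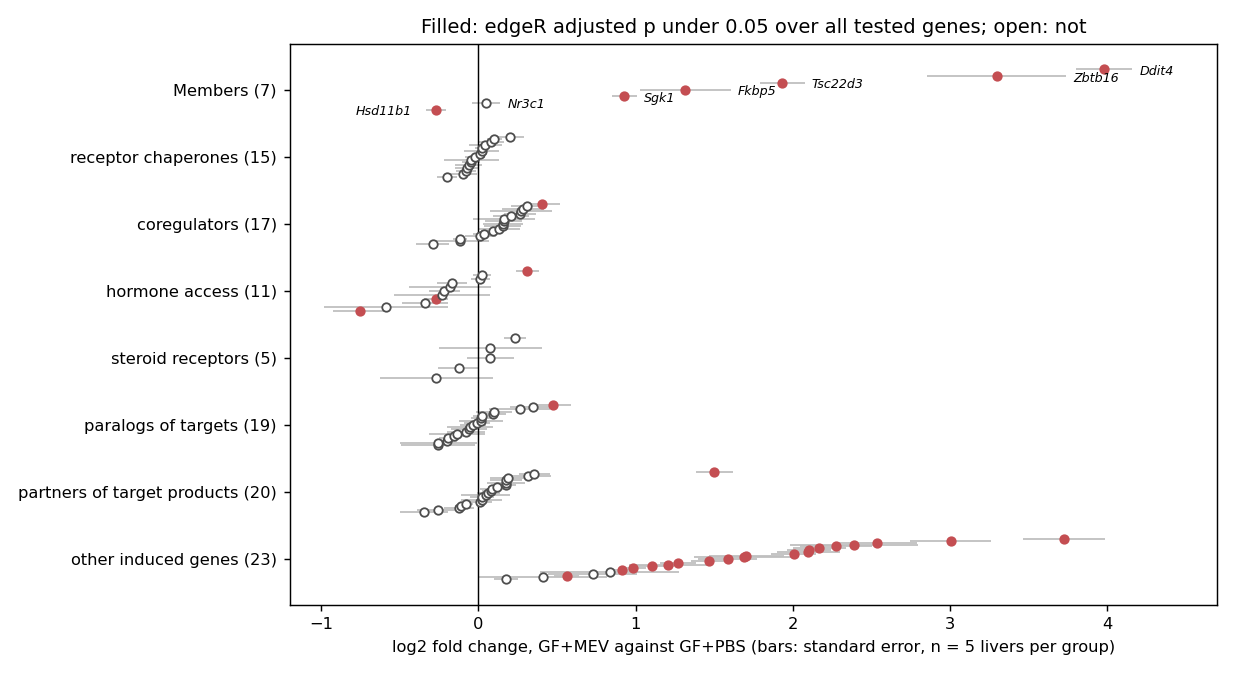
Log2 fold change of GF+MEV against GF+PBS livers (horizontal axis, bars for the SE, n = 5 livers per group) for the 7 members and for genes grouped by role, filled where edgeR's adjusted p was under 0.05. Chaperones stay within -0.20 to 0.20, and 19 of the 23 other glucocorticoid-induced genes are filled and to the right of 0.

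Corticosterone reaches the receptor through a binding globulin in plasma and is cleared in the liver by reductases and cytochromes. Of 13 such genes, 11 were tested, 1 rose (4.12% of all genes) and 2 fell (3.52%), with a median of -0.22. Serpina6, which encodes the binding globulin, stood at 216, 202, 206, 170 and 236 CPM in GF+MEV and at 264, 390, 256, 422 and 397 CPM in GF+PBS livers. No livers overlapped, and GF+PBS replicates 1 and 3 were the low ones of their group. Serpina6 fell by 0.75 ± 0.17 on the log2 scale (edgeR adjusted p = 0.00326) and passed in all 18 alternatives.

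Srd5a1, a 5α-reductase that inactivates glucocorticoids, rose by 0.31 ± 0.07 on the log2 scale (edgeR adjusted p = 0.0127), from 83.6 ± 4.53 to 104 ± 9.82 CPM. Akr1d1, the 5β-reductase of the same clearance, was at 147 ± 9.30 against 177 ± 18.0 CPM, with overlapping livers. Its log2 fold change of -0.27 ± 0.08 passed narrowly (edgeR adjusted p = 0.0355). The Akr1d1 call was lost in 8 of 18 alternatives, namely without GF+MEV replicate 1, 2, 3 or 4, without GF+PBS replicate 2, 4 or 5, and with GF+PBS livers summed, and its adjusted p ranged from 0.00902 to 0.0878. H6pd, which supplies the NADPH that HSD11B1 needs, was at 471 ± 36.0 against 464 ± 21.0 CPM, a log2 fold change of 0.02 ± 0.06. Akr1c6 (-0.17 ± 0.10) and Cyp3a11 (-0.23 ± 0.30), which had the highest mean CPM of the remaining genes, did not pass.

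**Figure D3:**
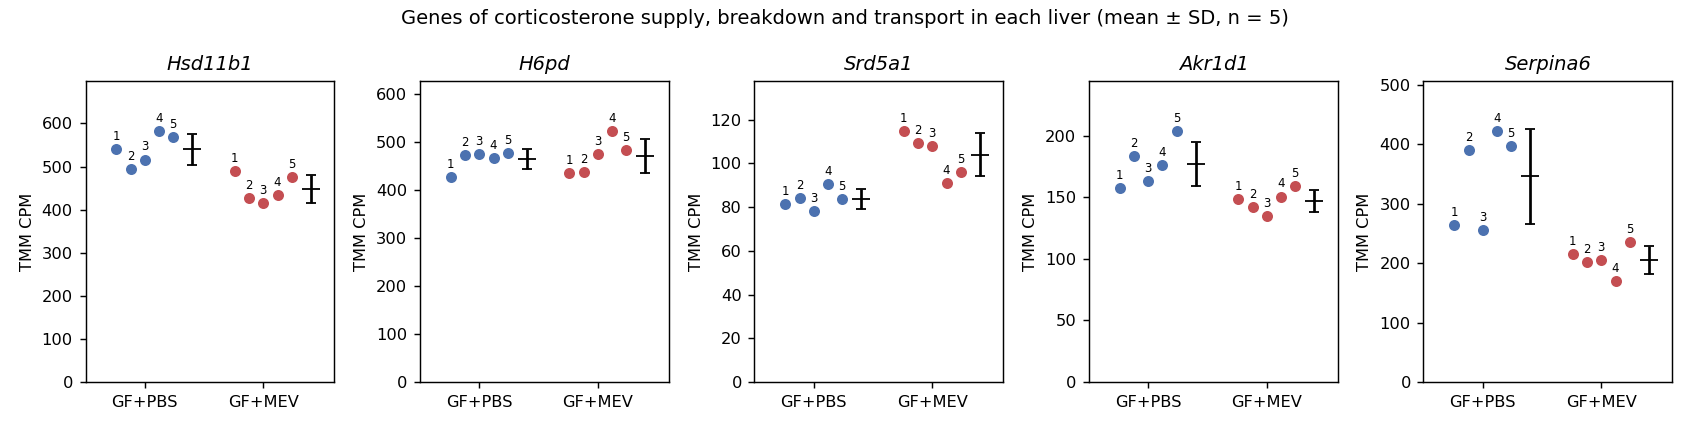
TMM CPM (linear axes from 0) of Hsd11b1, H6pd, Srd5a1, Akr1d1 and Serpina6 in each GF+PBS (blue) and GF+MEV (red) liver, points numbered by replicate, black bars for the mean ± SD of 5 livers. Hsd11b1 and Serpina6 lie lower in every GF+MEV liver, Srd5a1 lies higher in every one, and H6pd overlaps.

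Other genes that glucocorticoids are known to induce, in liver or in many cell types, were higher as a group. Their list was drawn up with earlier results of these data known and so is not independent of them. Of 26, 23 were tested and 19 rose, against 4.12% of all genes, and 0 fell (22 had an unadjusted p under 0.05 in edgeR, and DESeq2 also called 19). Their median log2 fold change was 1.58. Many of them, such as Igfbp1, Pck1 and G6pc, also answer to insulin and glucagon, and Per1 is a clock gene as well. The count was 20 without GF+MEV replicate 2 and 19 with the GF+PBS livers summed.

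Igfbp1, which encodes a binding protein for insulin-like growth factors, had the highest log2 fold change of the list at 3.72 ± 0.26. It stood at 708, 474, 370, 730 and 561 CPM in GF+MEV and at 33.1, 39.7, 30.2, 55.3 and 56.7 CPM in GF+PBS livers, with no overlap. Lpin1, a phosphatidate phosphatase, followed at 3.0 ± 0.26, Mt1, a metallothionein, at 2.54 ± 0.26 and the cell-cycle inhibitor Cdkn1a, on 10 to 45 counts a GF+PBS library, at 2.39 ± 0.41. Tat, the tyrosine aminotransferase long used as a hepatic glucocorticoid readout, was at 3652 ± 474 against 850 ± 151 CPM and Pck1, the gluconeogenic carboxykinase, at 6921 ± 696 against 2122 ± 750 CPM. The genes that did not pass were Tdo2 (0.18 ± 0.08), Pdk4 (0.41 ± 0.41), Irs2 (0.73 ± 0.28) and Bcl6 (0.84 ± 0.44). Tdo2, the tryptophan-degrading enzyme, was at 1727 ± 173 against 1527 ± 91.6 CPM. Irs2, an insulin receptor substrate, was at 42.4 ± 12.2 against 25.6 ± 7.90 CPM (edgeR adjusted p = 0.0539) and passed without GF+MEV replicate 2, without GF+PBS replicate 5 and with the replicate block, its adjusted p ranging from 0.0231 to 0.124.

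Relatives of the 5 targets were followed too. Of 24 genes of the FKBP, TSC22, SGK, ZBTB, DDIT4 and HSD11B families, 19 were tested and 1 rose, Tsc22d2 by 0.47 ± 0.12 (edgeR adjusted p = 0.0114), again near the 4.12% of all genes, with a list median of -0.035. With library size alone Fkbp4, Fkbp8 and Zbtb7b were called lower beside it, and with upper-quartile scaling Fkbp4 and Zbtb7b were. Tsc22d1 and Tsc22d4 stood at -0.26 ± 0.23 and -0.05 ± 0.15, and Sgk2 and Sgk3 at -0.08 ± 0.12 and 0.02 ± 0.14, in log2 fold change. Of 20 genes whose products work with REDD1 and SGK1 around mTOR and its upstream kinases, 1 rose, also near 4.12%, and the median was 0.071. It was Txnip, which encodes a thioredoxin-binding protein that partners REDD1, at 179 ± 14.1 against 63.4 ± 10.5 CPM, or 1.5 ± 0.12 higher in log2 terms (edgeR adjusted p = 2.78e-07). The mTORC1 genes themselves had Mtor at 0.18 ± 0.10 and Rptor at 0.12 ± 0.06, neither past the threshold.

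Inside each group the members' deviations went in both directions. Each gene's log2 CPM was set against its group mean, and the deviations of 10 livers were correlated for 21 pairs of genes. Pearson's r ran from -0.51 to 0.48 with a median of 0.07, and 13 pairs were positive and 8 negative. Taken over the 5 livers of each group alone, 12 of the 21 pairs had the same sign in both groups, and whether the groups differ in this was not tested. Among the 10 pairs of the 5 higher targets it ran from -0.39 to 0.48, with a median of 0.12. All points share libraries and scaling factors, the co-variation was part of how the genes were chosen, and no p is given.

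Hsd11b1 and Fkbp5 gave the lowest value, r = -0.51 (Spearman's rho = -0.64), which was -0.30 without GF+MEV replicate 1 and GF+PBS replicate 4, the livers farthest out for Hsd11b1. It came mostly from the GF+PBS livers, with r = -0.93 there and -0.14 in GF+MEV livers, on 5 livers each. Hsd11b1 and Zbtb16 were close to it, at r = -0.49 (rho = -0.62), and stood at -0.70 with library size alone. Tsc22d3 and Sgk1 gave the highest, r = 0.48 (rho = 0.48), and 0.34 without GF+PBS replicates 2 and 3. With 1 liver left out, the lowest r of any pair lay between -0.74 and -0.39 and the highest between 0.48 and 0.64. Fkbp5 and Tsc22d3 had r = 0.18 (rho = 0.08), and -0.74 once GF+MEV replicate 2 and GF+PBS replicate 2 were left out, so that relation rests on these livers. Over all 10 livers the receptor's own level had an r of 0.03 for Fkbp5, 0.16 for Tsc22d3, 0.12 for Zbtb16, 0.03 for Sgk1 and 0.45 for Ddit4. Without GF+MEV replicate 4 and GF+PBS replicate 1, the livers farthest out for Nr3c1, these were 0.60, -0.08, 0.08, -0.08 and 0.35 in the same order. By group, r for Nr3c1 and Zbtb16 was -0.37 in GF+MEV and 0.96 in GF+PBS livers, and for Nr3c1 and Tsc22d3 it was -0.21 and 0.52, on 5 livers each.

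**Figure D4:**
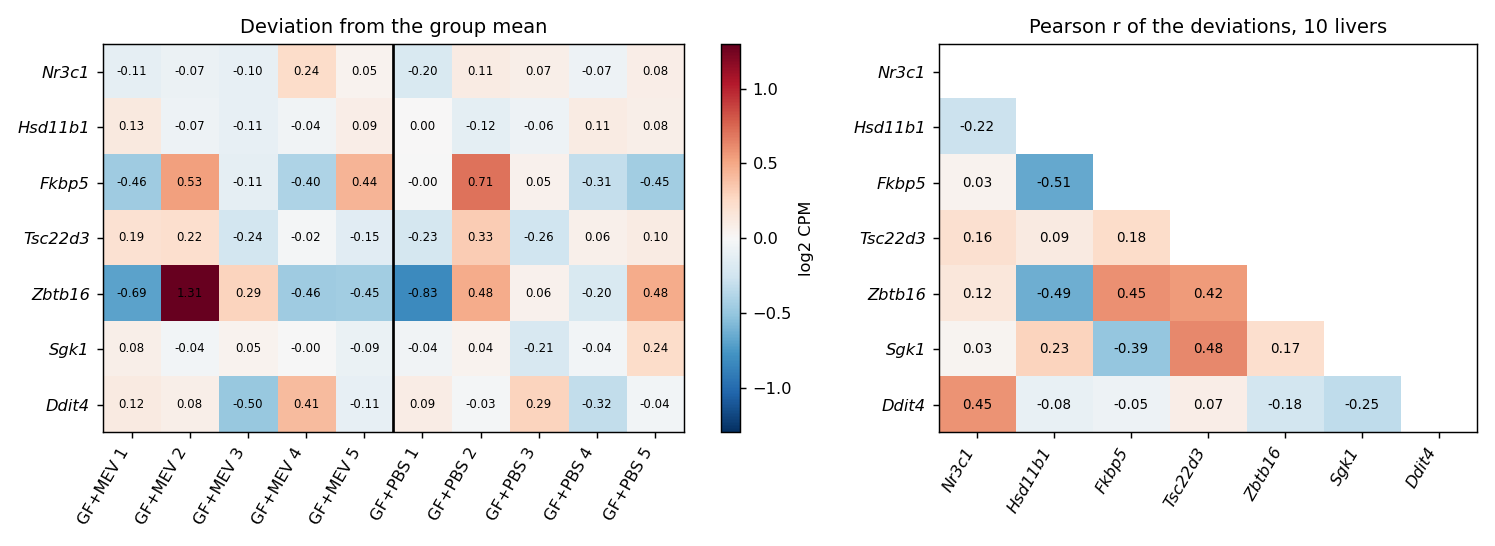
Left, deviation of each member from its group mean in each of the 10 livers (log2 CPM, red above and blue below, value printed in the cell). Right, Pearson r of those deviations for the 21 pairs over 10 livers. Zbtb16 in GF+MEV replicate 2 is the largest deviation at 1.31, and r stays between -0.51 and 0.48.

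Fkbp5, Tsc22d3 and Zbtb16 were all highest in replicate 2 of each group, and Nr3c1 was highest in GF+PBS replicate 2 as well. For Zbtb16 in GF+PBS livers this was a near-tie, with 4.035 CPM in replicate 2 and 4.023 CPM in replicate 5. With library size alone, without the low TMM factor of GF+MEV replicate 2, the highest GF+MEV liver was replicate 5 for Fkbp5 (107 CPM, against 102 in replicate 2) and replicate 1 for Tsc22d3 (151 against 140). Zbtb16 remained highest in replicate 2 there, at 56.6 CPM. Ddit4 ordered its livers differently, with GF+MEV replicate 4 and GF+PBS replicate 3 the highest.

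The genes whose within-group deviations were most like those of each member, out of 9148 genes at 5 CPM or more, were named by r over 10 livers as a description. Nr3c1 was nearest to Tmem123 (r = 0.97), Coa5 and Cyld, and Hsd11b1 to Ppp2ca (0.93), Pnp and Gsta2. Fkbp5 was nearest to Myl3 (0.91), Tbx3 and Coq5, and Tsc22d3 to Gm15638 (0.91), Tfrc and Car2. Zbtb16 was nearest to Supt20 (0.95), Ceacam1 and Pcf11, Sgk1 to Ino80d (0.95), Rcor3 and Ptk2b, and Ddit4 to Selenoi (0.94), Hsp90b1 and Mbl1. No member was among the 3 nearest genes of another, which with 9148 candidates over 10 livers says nothing on whether members co-vary. The highest of so many r values can be high for unrelated genes too, and none was tested. Gsta2 and Tbx3 were themselves lower in GF+MEV livers, by -0.70 ± 0.13 and -0.97 ± 0.22 in log2 fold change, and Tfrc was higher by 0.70 ± 0.23.

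Clock genes differed between livers of the same group, and glucocorticoid output is itself rhythmic. Of 15 core clock and output genes 2 rose (4.12% of all genes) and 2 fell (3.52%), with a median of -0.23. Per1, counted above among the glucocorticoid-induced genes and not in this list, rose by 1.69 ± 0.31. Ciart, a clock repressor, was higher by 2.0 ± 0.48 and Bhlhe40 by 0.52 ± 0.13, while Nr1d1, the REV-ERBα gene, stood at -0.48 ± 0.07 and Bhlhe41 at -0.47 ± 0.12. Bhlhe41 lost its call in 10 of 18 alternatives, and every liver left out in turn did so except GF+MEV replicate 5 and GF+PBS replicate 1. Dbp (-0.25 ± 0.12) and Tef (0.03 ± 0.17), which had the highest mean CPM of those that did not pass, are given as values only.

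Per3, chosen after its values were seen, was at 19.5 and 23.1 CPM in GF+PBS replicates 1 and 3 and at 68.1, 57.7 and 64.6 CPM in replicates 2, 4 and 5, with GF+MEV livers between, at 26.5 to 43.4 CPM. The members did not all follow this split of GF+PBS livers. Tsc22d3 was lowest in replicates 1 and 3 (30.0 and 29.4 CPM, against 36.9 to 44.3). Sgk1 was also lowest in them, with replicate 1 just under replicate 4 (14.603 against 14.655 CPM). Ddit4 was highest in them (5.61 and 6.43 CPM, against 4.19 to 5.16). For Nr3c1, Hsd11b1, Fkbp5 and Zbtb16, replicates 1 and 3 overlapped the range of the other GF+PBS livers. Per1 split in the direction of Per3, at 16.4 and 15.5 against 37.1 to 40.3 CPM. The part of collection time in any of these values was not tested.

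Markers of other cells moved in part with the groups. Summed lymphocyte markers, 6 of 16 tested, were at 6.87 to 9.21 CPM in GF+MEV and 11 to 12.5 CPM in GF+PBS livers without overlap, and Cd79a and Cd79b, the B-cell receptor chains, fell. Cholangiocyte markers, 3 of 6 tested, were at 28.1 to 79.3 against 23.2 to 29.7 CPM, with GF+MEV replicate 2 at the top, and Krt19 rose. Skeletal muscle markers reached 794, 573 and 774 CPM in GF+PBS replicates 3, 4 and 5, against 228 to 370 CPM in the other 7 livers. Kupffer and myeloid (225 to 453 against 274 to 397 CPM), endothelial (142 to 224 against 168 to 214 CPM) and stellate sums (159 to 232 against 182 to 205 CPM) overlapped. Among endothelial markers Lyve1 rose and Clec4g fell, and of 9 hepatocyte markers 3 rose and 0 fell. Of all genes tested, 4.12% rose and 3.52% fell by edgeR. No tested marker was at 0 in any liver, and the part of these cells in the members' values was not tested.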

How the data were processed

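RNA was extracted by the authors from whole liver of 10 germ-free mice and sequenced from NEBNext Ultra libraries. Per the submitters' processing notes and the study's methods, reads were converted with bcl2fastq 2.17, aligned to GRCm38 with STAR 2.7.3a and counted per gene with HTSeq, and genes under 20 counts over the samples were removed. The HTSeq version, annotation release and strand setting were not given in the sources used here. The authors deposited raw read counts per Ensembl gene, without normalization. 5 further columns of that table matched no sample and were not used.

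Symbols and positions came from GENCODE (GRCm38), which named 12137 of the 12147 identifiers tested. No member's exons overlapped those of another gene. Genes with at least 20 counts over the 10 livers were tested (12147 of 12148) with edgeR 4.0.16 in R 4.3.3 (TMM, quasi-likelihood test on the group alone, two-sided, Benjamini-Hochberg adjusted p under 0.05), and DESeq2 1.42.0 was an alternative. SEs of log2 fold changes and the co-variation used log2 CPM with a prior count of 2. On simulated GF+MEV against GF+PBS counts of 12147 genes, edgeR recovered 182 of 200 changed genes with 9 false calls. All planted changes were 2-fold, up or down, and no library was made to stand apart. These rates therefore do not carry over to calls of smaller changes.

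The members and lists were chosen with earlier results of these data known. Besides members, the text names by rule each list's called genes (up to 4), the 2 most abundant uncalled ones and each member's 3 nearest patterns. Other genes named were added for their role, or where a count was small. The result of 1 gene that the rule names is not reported here. No pair of livers within a group agreed within sampling noise, the smallest chi-square per gene of the 20 pairs being 6.34. Labels do not say whether mice shared cages or litters. The p-values set the group difference against the spread between these livers. A cage or litter difference between the groups could not be told apart from the treatment. Alternatives were other scalings and filters, a replicate block, leaving out each liver, and summing GF+PBS replicates 1 and 3, and 4 and 5.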

Additional observations from a re-analysis of the deposited data

Results flagged for a closer look

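In 90 groups of 5 livers, the gap of the highest or lowest liver was compared with the group's range by Dixon's ratio, which chance alone passes in about 1 of 20 groups. Of these, 3 passed. Mt1 was at 66.3 CPM in GF+PBS replicate 2, where the other GF+PBS livers were at 35.9 to 44.3 CPM. Sds, the serine dehydratase gene, was at 414 CPM in GF+MEV replicate 3, where the other GF+MEV livers were at 276 to 316 CPM. The TMM factor was 0.890 in GF+MEV replicate 2, where the other GF+MEV libraries were at 0.978 to 1.01. None of the 7 members passed in either group.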

How the results depend on the processing

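No direction of a called member turned under any of 18 alternatives, which reuse the livers the members were picked on and so add no support. The count of all genes called, 928 (53.9% higher), was 1040 with upper-quartile scaling (41.2% higher), 1023 with library size alone (32.5% higher), 1201 with DESeq2 and 561 with GF+PBS replicates 1 and 3, and 4 and 5, summed, and it ranged from 696 to 926 with 1 liver left out. The median log2 fold change of all genes moved at most to -0.078. Members called lower were 0 with the GF+PBS livers summed, and 0 to 1 with 1 liver left out (0 without GF+MEV replicate 3 or GF+PBS replicate 4). Chaperones called were 1 with upper-quartile scaling and 1 with library size alone (Fkbp4, lower). Coregulators called were 2 with DESeq2, 2 with upper-quartile scaling, and 0 to 2 with 1 liver left out (0 without GF+PBS replicate 3). Beside Crebbp the other call was Med1, higher, with DESeq2 and without GF+PBS replicate 2 or 5, and Hexim1, lower, with upper-quartile scaling and without GF+MEV replicate 1 or 2. Relatives of the targets called were 2 with DESeq2, 3 with upper-quartile scaling, 4 with library size alone and 1 to 3 with 1 liver left out, 2 without GF+MEV replicate 1 and 3 without GF+PBS replicate 5. All calls added to Tsc22d2 there were lower, except Zbtb20 without GF+PBS replicate 5. Partners called were 2 with DESeq2 and 1 to 2 with 1 liver left out, 2 without GF+MEV replicate 4 or GF+PBS replicate 5. The cause of these shifts was not tested.

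No pairing of livers by replicate number was seen, and a pairing by cage or batch was not tested. Same-numbered livers of both groups had correlated deviations of 0.13, -0.05, -0.15, -0.14 and 0.14, and 2 of 10 livers correlated best with their own number. With the replicate block 792 genes were called, 2 coregulators passed in place of 1, and Irs2 passed. Zbtb16 in GF+PBS livers rests on 28 to 72 counts, where counting error alone is 13.7%.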
